A study of Drosophila melanogaster with 4 samples.

Results

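The structural cuticle protein genes of Drosophila melanogaster were followed in adult heads. Genes were chosen by symbol: the Cpr genes, the Ccp84A genes, the Lcp genes, the Tweedle (Twdl) genes and 4 single genes, Pcp, Acp65Aa, Edg78E and Edg84A, with the corneal lens gene Cpr72Ec left out. This gave 120 of the 16489 gene symbols counted, and all 120 had a match in the gene annotation. They comprised 69 Cpr, 25 Twdl, 15 Lcp, 7 Ccp84A and 4 single genes. Heads came from flies in which GMR-Gal4 drove the activated Yorkie transgene (genotype GMR>yki S168A, n = 2 libraries, named tumor tissue by the submitters) and from flies with GMR-Gal4 alone (control, n = 2 libraries). The driver GMR-Gal4, carried by both groups, acts mainly in the developing eye, so most of the head lies outside its main domain. Each library pooled 30 heads, and the sources used here give neither the sex nor the age in days of the flies. Nothing in the labels ties the libraries to separate cultures, so the p-values rest on the spread between these samples alone, and that spread may be technical.

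Insect cuticle is a matrix of chitin fibers and proteins that the epidermis secretes at its apical face and renews at each molt. Most Cpr, Ccp84A and Lcp proteins carry the Rebers and Riddiford consensus, a domain that binds chitin, while Tweedle proteins form a separate family named after a mutant with a short, broad body. Many of these genes sit in tandem clusters and are switched on in turn at larval, pupal and adult molts under the control of ecdysone. Lcp, Pcp and Acp stand for larval, pupal and adult cuticle protein, and Edg for ecdysone-dependent gene. Beyond the family, no role is given here for single Cpr or Ccp84A genes.

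Library totals were 17311383 and 18108814 counts for yki S168A and 16817968 and 15738860 counts for control, so that 3 counts correspond to 0.166 to 0.191 CPM, the counts of a gene scaled to the size of its library. The gene yki had 531 and 479 counts in yki S168A and 217 and 300 counts in control libraries. In yki S168A libraries, reads of the transgene, if counted under yki, cannot be told apart from those of the resident gene. The sum over 8 marker genes of head tissue was 3023 and 3806 CPM in yki S168A and 5976 and 5713 CPM in control libraries. Of the 8, ninaE (the main rhodopsin of the outer photoreceptors, 895 and 1108 CPM in yki S168A and 2461 and 2279 CPM in control libraries), ninaC, nSyb, brp and Obp99a were called lower, and elav, Obp44a and repo were not called. Of 4 genes listed as midgut markers, Jon65Aiv, alphaTry and betaTry had at most 6 counts in any library. LM408, far apart from them in level, had 2207 and 1790 counts in yki S168A and 3074 and 2755 counts in control libraries. It was called lower (adjusted p = 0.025), and whether its counts came from midgut was not tested. Of the markers of flight muscle and thorax, Act88F, fln and TpnC4, 0 of 3 were called, and they summed to 179 and 244 counts in yki S168A and 361 and 187 counts in control libraries. The hemocyte markers Hml, NimC1 and PPO1 summed to 35.9 and 21.5 CPM in yki S168A and 48.3 and 53.7 CPM in control libraries, with Hml called lower. The part of these tissue markers in the cuticle gene results was not tested.

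In yki S168A heads, 17 of the 120 cuticle protein genes were higher and 10 were lower at an adjusted p below 0.05 (edgeR's quasi-likelihood test, Benjamini-Hochberg over all genes tested). Over all 10896 genes tested, 15.1% were called higher, 12.5% lower and 27.6% in either direction. Of the 120, 53 had enough counts to be tested and 67 did not, so the calls make up 32.1% (higher) and 18.9% (lower) of the tested genes and 14.2% and 8.33% of all of them. Genes that passed the count filter through 1 group alone could hardly fail to differ, so these shares are a description. The median log2 fold change of the 53 tested genes was 0.32, against 0.01 over all genes tested. Changes of more than 4-fold were called for 8 higher and 4 lower cuticle genes, where 3.01% and 2.28% of all genes tested had such calls. Both yki S168A libraries lay above both controls in 21 of the 53 tested genes (39.6%, against 32.1% of all genes tested) and below both in 16 (30.2%, against 31.2%). All 27 called genes were among these. In heads taken whole, more cells of a type and more RNA per cell cannot be told apart.

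**Figure D1:**
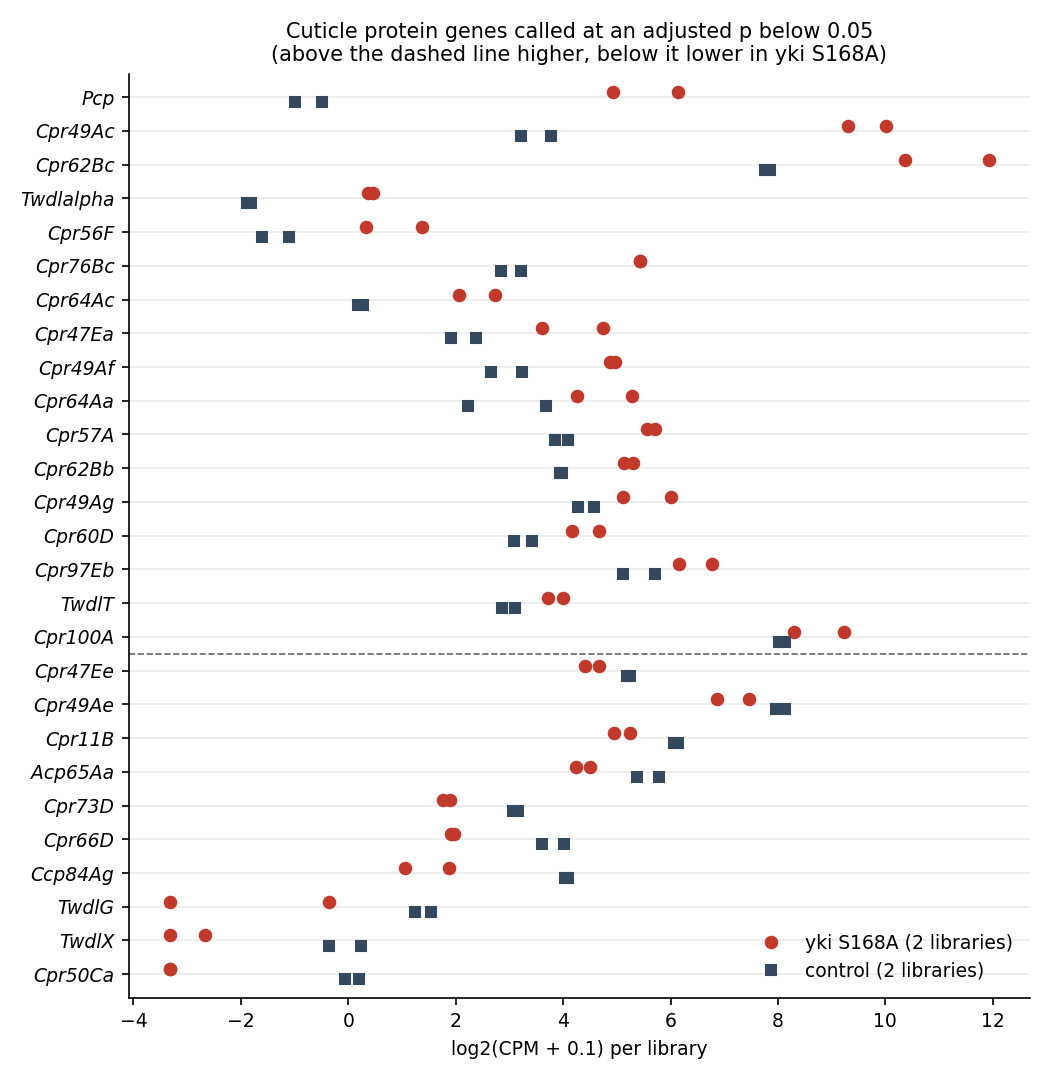
Level of each called cuticle protein gene in each library, as log2(CPM + 0.1), with circles for the 2 yki S168A and squares for the 2 control libraries. The 17 genes above the dashed line were higher and the 10 below it lower in yki S168A, Pcp, Cpr49Ac and Cpr62Bc stand farthest apart among the higher genes, and TwdlG, TwdlX and Cpr50Ca reach 0 counts in at least 1 yki S168A library.

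Summed over all 120 genes, tested or not, cuticle protein genes took 57777 and 122876 counts in yki S168A and 32481 and 28109 counts in control libraries. These are 0.334% and 0.679% of the counts in yki S168A and 0.193% and 0.179% in control libraries. The difference rested on 2 genes, Cpr62Bc and Cpr49Ac. They took 55.9% and 70.8% of the cuticle gene counts in yki S168A and 13.2% and 13.0% in control libraries. Without them the remaining 118 genes summed to 1548 and 2038 CPM in yki S168A and 1609 and 1500 CPM in control libraries, and the groups overlapped. Sums over genes say how many reads a family took, not how strongly each gene was expressed. With 2 libraries against 2, an exact two-sided permutation test of a sum cannot give a p below 0.333, and none is given.

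**Figure D2:**
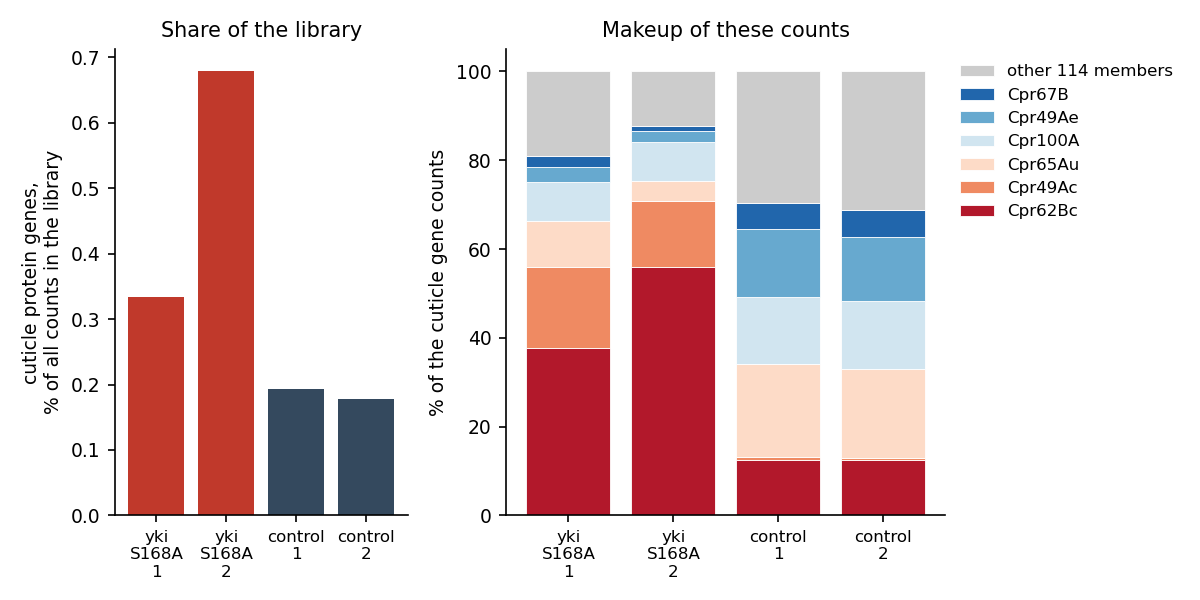
Left, share of all counts of a library that fell on cuticle protein genes, in percent; right, makeup of these counts by gene, in percent, for the 2 yki S168A and the 2 control libraries. Cpr62Bc and Cpr49Ac together make up 55.9% and 70.8% of the bars of yki S168A and 13.2% and 13.0% of those of control.

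Cpr62Bc (FBgn0035281, chromosome 3L, 1840281 to 1842084, build dm6) was at 1322 and 3893 CPM in yki S168A and at 231 and 215 CPM in control libraries. It was 11.7-fold higher (log2 fold change 3.55 ± 0.40 SE, edgeR adjusted p = 6.67e-05). Both yki S168A libraries lay far above the controls but also far from each other, and without yki S168A replicate 2 the gene was 5.91-fold higher. A fit without 1 library has no replicate left in that group, so its p-value carries no spread of that group. Cpr49Ac (FBgn0033725, chromosome 2R, 12386666 to 12390057) was at 636 and 1038 CPM in yki S168A and at 13.5 and 9.14 CPM in control libraries. Its fold of 73.6 (log2 6.20 ± 0.29 SE, adjusted p = 1.17e-07) ranged from 55.8 to 91.3 over the alternative settings. A gene of minor level in control heads was thereby the second most counted cuticle gene of yki S168A heads.

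On a scale that divides CPM by exon length, so that genes can be set beside each other, Cpr65Au led in control heads and was followed by Cpr49Ae, Cpr62Bc and Cpr100A. In yki S168A heads the order was Cpr62Bc, Cpr65Au, Cpr49Ac and Cpr100A, with Cpr49Ae next. Mean levels were 2299 CPM per kb of exon for Cpr62Bc in yki S168A and 197 in control, and 395 and 5.35 for Cpr49Ac, which stood in place 3 in yki S168A and in place 28 in control heads. Pcp stood in place 9 in yki S168A and in place 50 in control heads, at 70.0 and 0.705 CPM per kb. Cpr65Au had 653 CPM per kb in yki S168A and 698 in control heads. In CPM it was at 364 and 323 in yki S168A and at 388 and 346 in control libraries. The groups overlapped, and the 95% interval of its log2 fold change was −0.42 to 0.22 (adjusted p = 0.679). An annotated antisense RNA, CR46005, covers 93.3% of its exonic bases. The strand setting of the counting is not given, so these counts cannot be assigned to 1 strand. In control heads Cpr62Bc and Cpr100A had practically the same level per kb, 197 and 196, and neighbors this close in the order do not differ beyond their spread.

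**Figure D3:**
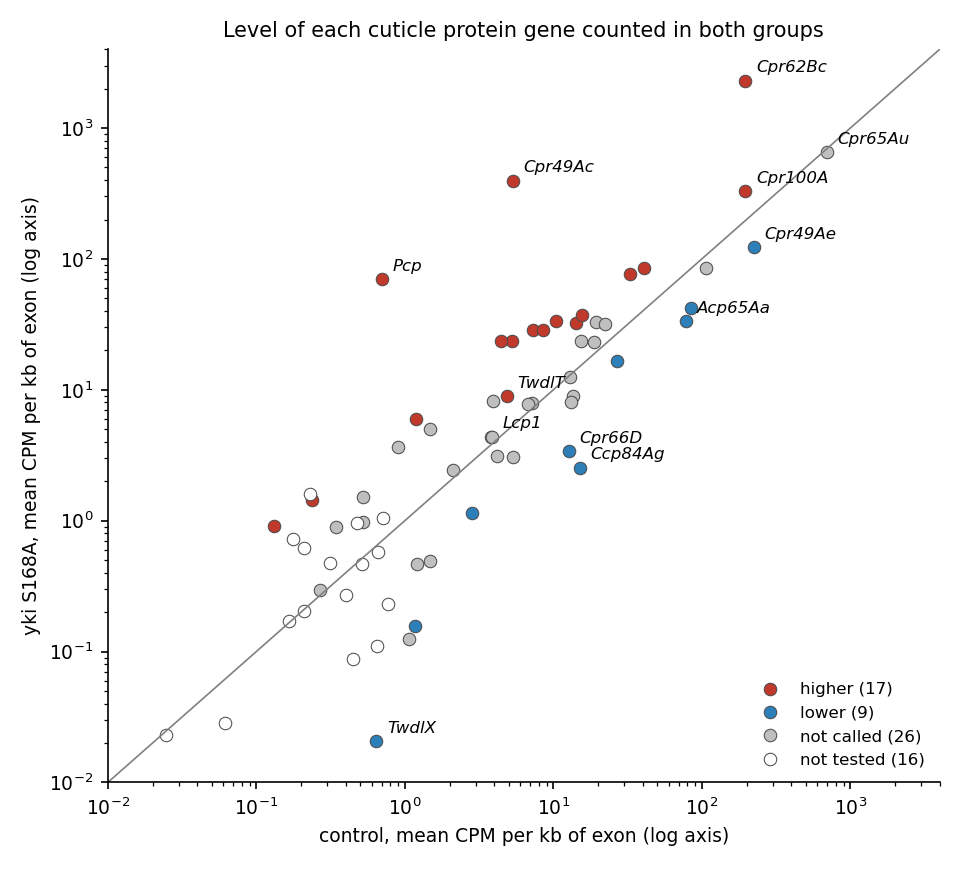
Mean level of 68 cuticle protein genes with counts in both groups, in CPM per kb of exon on log axes, with yki S168A on the vertical and control on the horizontal axis and a line of equal level. Cpr62Bc, Cpr49Ac and Pcp lie farthest above the line, Cpr65Au lies on it, and Ccp84Ag, Cpr66D and TwdlX lie below it.

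The genes named for a stage went different ways. Pcp (FBgn0003046, chromosome 2L, 7021682 to 7022470), a pupal cuticle protein gene nested inside an intron of the purine synthesis gene Gart, was at 70.3 and 30.2 CPM in yki S168A and at 0.4 and 0.613 CPM in control libraries. These are 1158 and 533 counts in yki S168A and 7 and 10 counts in control libraries, a 98.3-fold difference (log2 6.62 ± 0.55 SE, adjusted p = 6.7e-06), and 59.2-fold without yki S168A replicate 1. The host gene, which runs on the opposite strand and is listed under an older symbol, had 2666 and 1636 counts in yki S168A and 3378 and 3012 counts in control libraries. Its log2 fold change of −0.57 did not pass (adjusted p = 0.0726). Pcp counts were 0.434 and 0.326 times those of the host in yki S168A and 0.00207 and 0.00332 times in control libraries. Acp65Aa (FBgn0020765, chromosome 3L, 6152050 to 6152745), an adult cuticle protein gene, was lower, at 18.9 and 22.5 CPM in yki S168A and 41.6 and 55.0 CPM in control libraries (2.33-fold, adjusted p = 0.00102). The ecdysone-dependent genes among those chosen were scarce: Edg78E had 4 and 0 counts in yki S168A and 22 and 13 counts in control libraries and was not called (adjusted p = 0.0731). Edg84A had 0 and 2 counts in yki S168A and 7 and 3 counts in control libraries and was not tested. Edg91, a gene of the same naming outside the chosen set, had 92 and 160 counts in yki S168A and 11 and 29 in control libraries. It was called higher (adjusted p = 0.00396).

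Larval cuticle protein genes were close to silent in heads of both groups. The 15 Lcp genes summed to 110 and 235 counts in yki S168A and to 199 and 93 counts in control libraries. Of them 5 had no count in any library, where a count of 0 allows up to 0.166 to 0.191 CPM, 3 were tested and 0 were called, with 0 of the 3 at an unadjusted p below 0.05, and limma-voom and DESeq2 also called 0. Lcp1, the most counted of them in control libraries, had 44 and 118 counts in yki S168A and 98 and 44 counts in control libraries, so the groups overlapped (log2 fold change 0.18, 95% interval −0.95 to 1.30, adjusted p = 0.842). No difference in Lcp1 was detectable at this depth, and its sign turned without control replicate 2 or yki S168A replicate 2. Lcp65Ac had 18 and 70 counts in yki S168A and 23 and 3 counts in control libraries, which overlapped. Its log2 fold change of 1.73 was 2.36 when yki S168A replicate 1 was left out.

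Among the 69 Cpr genes, 36 were tested. Of these, 14 were higher (38.9%, against 15.1% of all genes tested) and 6 were lower (16.7%, against 12.5%). Cpr76Bc (FBgn0036880, chromosome 3L, 19520945 to 19527272) was at 43.0 and 43.2 CPM in yki S168A and at 9.13 and 7.12 CPM in control libraries, 5.28-fold higher (log2 2.40 ± 0.21 SE, adjusted p = 1.1e-05). Its yki S168A libraries were closer to each other than those of the more strongly raised genes. Cpr49Af was at 31.1 and 29.2 CPM in yki S168A and at 9.30 and 6.20 CPM in control libraries (3.87-fold, adjusted p = 0.000156). Cpr62Bb was at 35.1 and 39.2 CPM in yki S168A and at 15.3 and 15.6 CPM in control libraries (2.41-fold, adjusted p = 0.000561). For these 3 genes the gap between groups was several times the spread within them.

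Other Cpr genes were higher with a wider spread among the yki S168A libraries. Cpr47Ea was at 12.1 and 26.8 CPM in yki S168A and at 5.08 and 3.68 CPM in control libraries (4.44-fold, adjusted p = 0.00225), and it was 2.75-fold higher without yki S168A replicate 2. Cpr64Ac was at 4.07 and 6.52 CPM in yki S168A and at 1.03 and 1.10 CPM in control libraries (4.97-fold, adjusted p = 0.00773). Cpr49Ag was at 34.8 and 64.4 CPM in yki S168A and at 19.2 and 23.7 CPM in control libraries (2.32-fold, adjusted p = 0.00607). Replicate 2 was the higher of the yki S168A libraries for all 3 of these genes. Cpr64Aa was at 19.1 and 39.0 CPM in yki S168A and at 12.7 and 4.60 CPM in control libraries (3.33-fold, adjusted p = 0.00993). For Cpr64Aa single libraries weighed more: the fold was 6.31 without control replicate 1, and 2.18 without yki S168A replicate 2, where the call was lost (adjusted p = 0.0696).

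The remaining Cpr calls upward were smaller or rested on fewer counts. Cpr60D was at 25.4 and 17.8 CPM in yki S168A and at 8.33 and 10.6 CPM in control libraries (2.29-fold, adjusted p = 0.00658, and 0.0553 without control replicate 1). Cpr97Eb was at 71.5 and 109 CPM in yki S168A and at 52.1 and 34.4 CPM in control libraries (2.09-fold, adjusted p = 0.00604, and 0.052 without control replicate 2). Cpr100A, one of the most abundant cuticle genes of the head, was at 314 and 599 CPM in yki S168A and at 281 and 261 CPM in control libraries. Its 1.69-fold difference (adjusted p = 0.0388) was lost under 6 of 12 alternatives, among them upper-quartile scaling and the fits without control replicate 1, control replicate 2 or yki S168A replicate 2. The lower yki S168A library of Cpr100A stood only slightly above the controls. Cpr56F, with 19 and 44 counts in yki S168A and 4 and 6 counts in control libraries (6.10-fold, adjusted p = 0.0392), lost its call under 7 alternatives, among them DESeq2, limma-voom and the fits without control replicate 1, control replicate 2 or yki S168A replicate 2 (3.82-fold without the last).

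The 6 Cpr genes that were lower changed less than the strongest of the higher ones, Cpr50Ca apart. Cpr66D was at 3.82 and 3.69 CPM in yki S168A and at 12.1 and 16.0 CPM in control libraries (log2 fold change −1.90 ± 0.32 SE, adjusted p = 0.00127). Cpr49Ae (FBgn0033728, chromosome 2R, 12402216 to 12405108), in place 2 per kb in control heads, was at 117 and 176 CPM in yki S168A and at 281 and 250 CPM in control libraries (log2 −0.86 ± 0.19 SE, adjusted p = 0.00564). Both genes kept their calls under every alternative in which they were tested. Cpr73D was at 3.28 and 3.63 CPM in yki S168A and at 8.79 and 8.28 CPM in control libraries (log2 −1.30, adjusted p = 0.0175), which no longer passed when control replicate 1 or control replicate 2 was left out. Cpr47Ee was at 21.0 and 25.3 CPM in yki S168A and at 36.4 and 37.7 CPM in control libraries (log2 −0.68, adjusted p = 0.0183), which no longer passed when control replicate 1, control replicate 2 or yki S168A replicate 1 was left out.

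Cpr50Ca (FBgn0033867, chromosome 2R, 13769915 to 13787802, plus strand) had 0 counts in both yki S168A libraries and 15 and 17 counts in control libraries. Against a floor of 3 counts per library it was at least 5.39-fold lower (adjusted p = 0.0307). The call was lost when any 1 of the 4 libraries was left out and with no filter. Other genes of the locus were also at 0 in yki S168A. S-Lap7, a gene of the sperm aminopeptidase family that lies inside the Cpr50Ca locus on the minus strand, had 0 and 0 counts in yki S168A and 40 and 56 counts in control libraries. The noncoding gene CR43811, farther along, had 0 and 0 counts in yki S168A and 26 and 12 counts in control libraries. They were at least 16.2-fold and at least 6.30-fold lower. Whether the locus itself differs between the fly stocks was not tested. The next cuticle gene, Cpr50Cb, had 241 and 463 counts in yki S168A and 239 and 214 counts in control libraries and was not called (adjusted p = 0.137). Its log2 fold change of 0.61 was 0.97 without yki S168A replicate 1. Of the testis markers, ProtA (listed as Mst35Ba) had 0 counts in every library, and Mst84Da had 11 and 0 counts in yki S168A and 4 and 0 counts in control libraries.

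The 7 Ccp84A genes lie with Edg84A in 20.5 kb of chromosome 3R. Only Ccp84Ag (FBgn0004777, chromosome 3R, 6686728 to 6688039) was called among the 5 tested. It was at 3.58 and 1.99 CPM in yki S168A and at 16.3 and 17.0 CPM in control libraries, 6.01-fold lower (log2 −2.59 ± 0.34 SE, adjusted p = 0.000214). The yki S168A and control libraries were far apart, and the call held under the 11 alternatives that tested the gene. The other 4 tested genes did not pass. Ccp84Ab was at 16.1 and 39.0 CPM in yki S168A and at 11.3 and 20.8 CPM in control libraries (log2 0.79, adjusted p = 0.152). Its log2 fold change was 1.29 when control replicate 2 was left out and 1.28 when yki S168A replicate 1 was. Ccp84Ad (log2 1.08) was at 1.72 without yki S168A replicate 1, and its sign turned without yki S168A replicate 2. Ccp84Aa, the tested cuticle gene with the largest p, was at 7.22 and 11.9 CPM in yki S168A and at 7.88 and 12.0 CPM in control libraries (log2 −0.05, 95% interval −0.79 to 0.69, adjusted p = 0.94). The 95% interval of Ccp84Ag, −3.34 to −1.84, lay apart from those of Ccp84Aa and Ccp84Ab (−0.05 to 1.62). The difference between Ccp84Ag and these genes, which lie at the other end of the cluster, was not itself tested. The genes next to Ccp84Ag, Edg84A and Ccp84Af, had too few counts to test. Summed over the 7 genes, counts were 513 and 1141 in yki S168A and 684 and 866 in control libraries, and the groups overlapped.

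Of the 25 Tweedle genes, 10 had no count in any library and 6 were tested. Of these 6, 2 were higher (33.3%, against 15.1% of all genes tested) and 2 lower (33.3%, against 12.5%). TwdlT (FBgn0029170, chromosome 3R, 27049220 to 27051004) was at 13.0 and 15.8 CPM in yki S168A and at 8.51 and 7.18 CPM in control libraries (1.84-fold, adjusted p = 0.0337). That call was lost with upper-quartile scaling, with DESeq2 and without control replicate 1, control replicate 2 or yki S168A replicate 2. Twdlalpha had 21 and 21 counts in yki S168A and 3 and 3 counts in control libraries (6.70-fold, adjusted p = 0.0392), and its call was lost under 9 of the 11 alternatives that tested it, including the fit without any 1 of the 4 libraries. TwdlG had 0 and 12 counts in yki S168A and 49 and 37 counts in control libraries (log2 −2.83, adjusted p = 0.0291), which no longer passed under 5 alternatives, among them the fits that left out control replicate 1, control replicate 2 or yki S168A replicate 1 (3.71-fold lower without the last). Without yki S168A replicate 2 the remaining yki S168A library is at 0 for TwdlG, so no fold is given. TwdlX, the called gene next to the threshold, had 0 and 1 counts in yki S168A and 19 and 11 counts in control libraries. The ratio of the group totals was 30.3-fold lower in yki S168A, with a counting interval of 5.03 to 1235 (exact, 95%; adjusted p = 0.0399). Its call was lost with no filter, with DESeq2 and without control replicate 2, yki S168A replicate 1 or yki S168A replicate 2. TwdlE, the uncalled gene next to the threshold, was at 11.2 and 10.7 CPM in yki S168A and at 15.4 and 19.9 CPM in control libraries (log2 −0.69, adjusted p = 0.0611), and it passed with upper-quartile scaling and among genes with a mean of at least 10 CPM. No Tweedle call held under all alternatives, and the 12 Tweedle genes of the cluster that runs from TwdlM to TwdlD had 0 and 0 counts in yki S168A and 29 and 9 counts in control libraries together.

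Seen along the chromosomes, cuticle genes less than 50 kb apart formed 17 clusters with 92 of the 120 genes. Of the 39 clustered genes tested, 12 were higher and 7 lower, and of the 14 tested genes outside clusters 5 were higher and 3 lower. The shares over all genes tested were 15.1% higher and 12.5% lower. Calls fell in 11 clusters. In 3 of these they went both ways: at 47E and 49A on chromosome 2R and between TwdlX and Twdlalpha on the X chromosome. Only at 49A did a call in each direction hold under every alternative that tested the gene. The calls of TwdlX and Twdlalpha rested on few counts, and that of Cpr47Ee, the lower gene at 47E, was lost under 3 alternatives. The 49A cluster spans 38.5 kb and 8 genes. In it Cpr49Ac, Cpr49Af and Cpr49Ag were higher, and Cpr49Ae, which lies between Cpr49Ac and Cpr49Af, was lower. Cpr49Ad, next to Cpr49Ac, had no count in any library. Cpr49Ab had 35 and 72 counts in yki S168A and 2 and 23 counts in control libraries and was not called (adjusted p = 0.0654). Its log2 fold change of 2.07 was 4.69 without control replicate 2 and 2.45 without yki S168A replicate 1. CG8501, a gene between Cpr49Ab and Cpr49Ac that is no cuticle gene by symbol, had 1844 and 1472 counts in yki S168A and 186 and 116 counts in control libraries and was 11.0-fold higher.

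In the 62B cluster the log2 fold changes of Cpr62Ba, Cpr62Bb and Cpr62Bc were 0.19, 1.27 and 3.55, of which the last 2 were called. Their 95% intervals were −0.56 to 0.93, 0.85 to 1.69 and 2.66 to 4.43 and overlapped only between Cpr62Ba and Cpr62Bb. The sign of Cpr62Ba turned without yki S168A replicate 1. In the 76B cluster Cpr76Bc was called, and Cpr76Bb (log2 0.87, adjusted p = 0.529) and Cpr76Bd (log2 0.21, adjusted p = 0.534, at −0.0039 without yki S168A replicate 2) were not. The cluster at 65A, with 18 genes the one with most members, was dominated by Cpr65Au in both groups. Of its 18 genes, 9 had no count in any library, 4 were tested, and Acp65Aa was the 1 called. Between or overlapping the members of all clusters lay 28 other genes, of which 14 were tested, 7 were higher and 2 were lower. Over all genes tested, 15.1% were higher and 12.5% lower. Some of these other genes host or overlap a member, CG43367, RYa-R and Or47a among the higher ones, so they are not all separate neighbors.

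**Figure D4:**
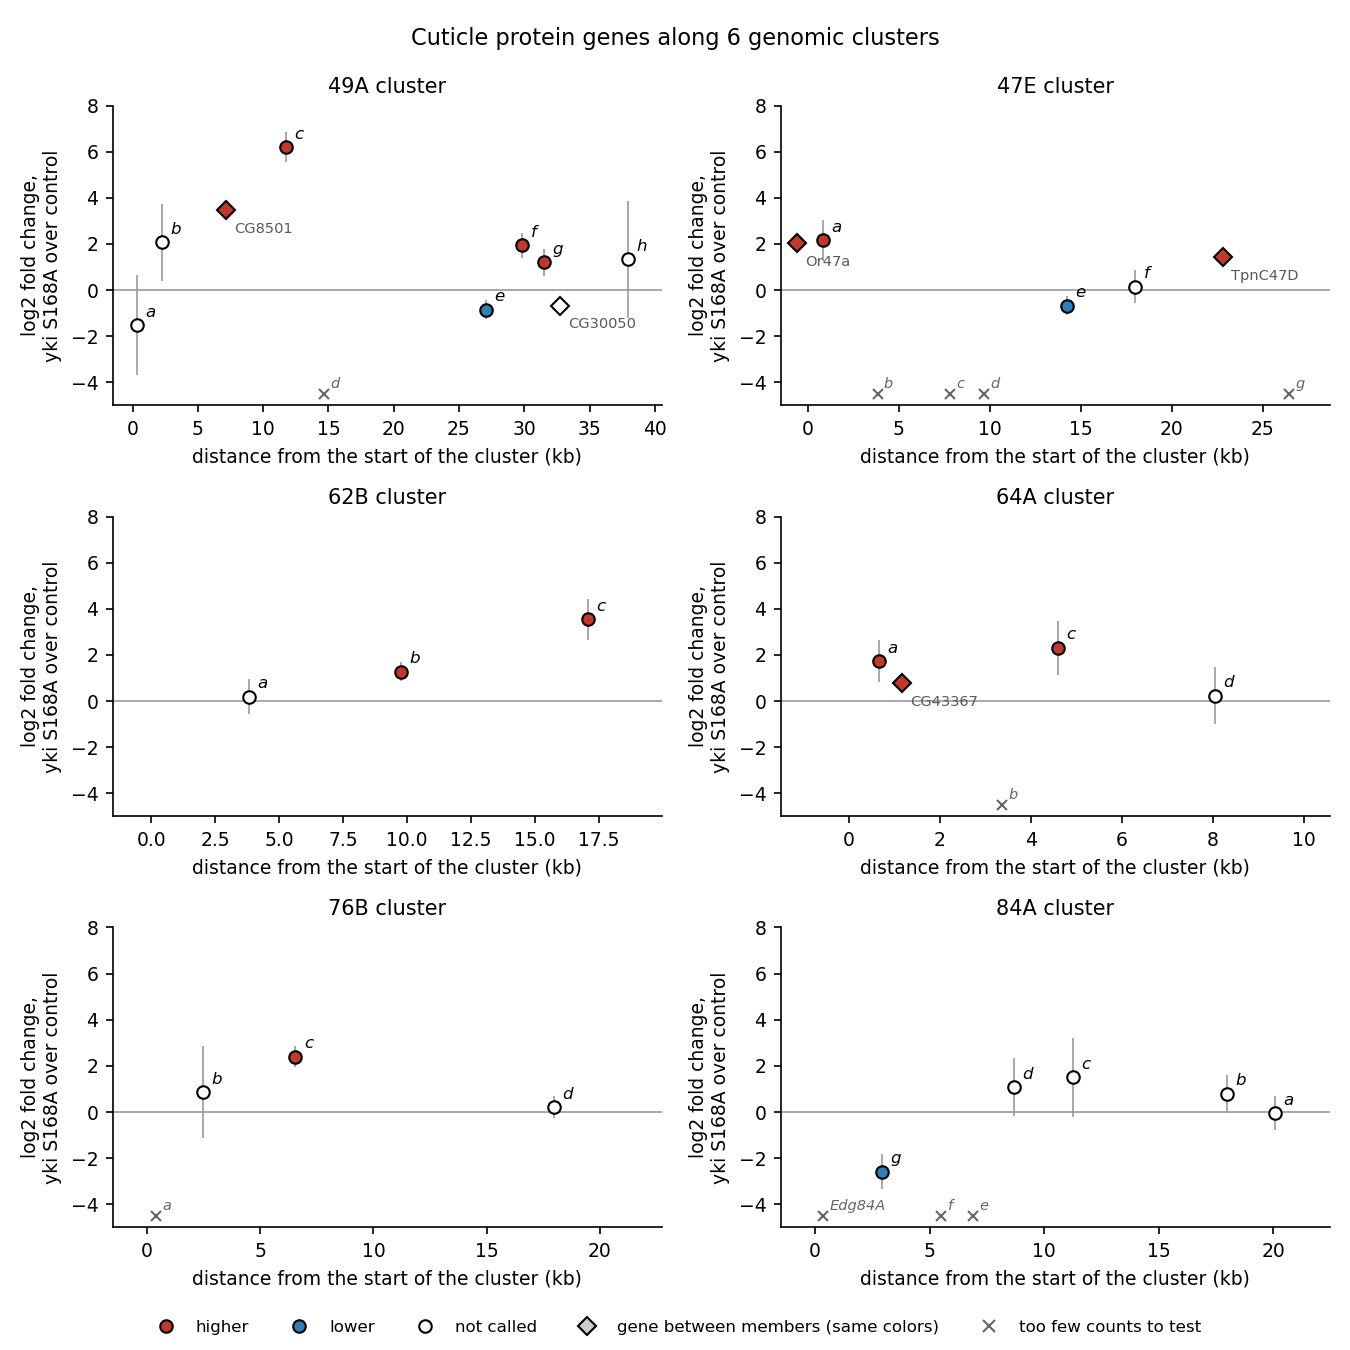
Log2 fold change of cuticle protein genes, yki S168A over control, along 6 genomic clusters, plotted at the middle of each gene as distance in kb from the cluster's start; lines are 95% intervals, diamonds other genes between or overlapping the members, and crosses genes with too few counts to test. In the 49A cluster Cpr49Ac stands at 6.20 and Cpr49Ae at −0.86, and in the 84A cluster Ccp84Ag stands alone at −2.59.

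Some of these counts share their locus with another gene, and the sources used here do not give the strand setting of the counting. Cpr57A (2R, 20548368 to 20550117) was at 52.2 and 47.1 CPM in yki S168A and at 16.9 and 14.2 CPM in control libraries (3.19-fold, adjusted p = 6.23e-05). The odorant-binding protein gene Obp57d has the same annotated start, end and strand. It had 980 and 954 counts in yki S168A and 315 and 272 counts in control libraries, against 861 and 831, and 296 and 232, for Cpr57A. The calls of Cpr57A and Obp57d cannot be told apart. Cpr47Ea shares 19.7% of its exonic bases with the odorant receptor gene Or47a on the opposite strand. The counts of Cpr47Ea were 1.35 and 1.38 times those of Or47a in yki S168A and 1.27 and 1.30 times in control libraries. The part of shared reads in the rise of either gene was not tested.

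Cpr11B (X chromosome, 12553124 to 12554235) was at 30.8 and 37.9 CPM in yki S168A and at 70.8 and 66.6 CPM in control libraries (log2 −0.998 ± 0.17 SE, adjusted p = 0.00116). It lies inside an intron of hwt, on the opposite strand, and hwt was also lower, with 637 and 698 counts in yki S168A and 1330 and 1321 counts in control libraries (adjusted p = 0.000579). The counts of Cpr11B were 0.797 and 0.958 times those of hwt in yki S168A and 0.933 and 0.821 times in control libraries, and whether they come from separate transcripts was not tested. TwdlE has 71.9% of its exonic bases opposite lectin-28C, which was lower (log2 −0.97, adjusted p = 0.000787). The 64A cluster lies inside introns of CG43367, which was higher by less (log2 0.77, adjusted p = 0.0263) than Cpr64Aa and Cpr64Ac. TwdlT lies inside an intron of RYa-R on the same strand, and RYa-R, with 43 and 34 counts in yki S168A and 10 and 3 counts in control libraries, was also higher.

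**Figure D5:**
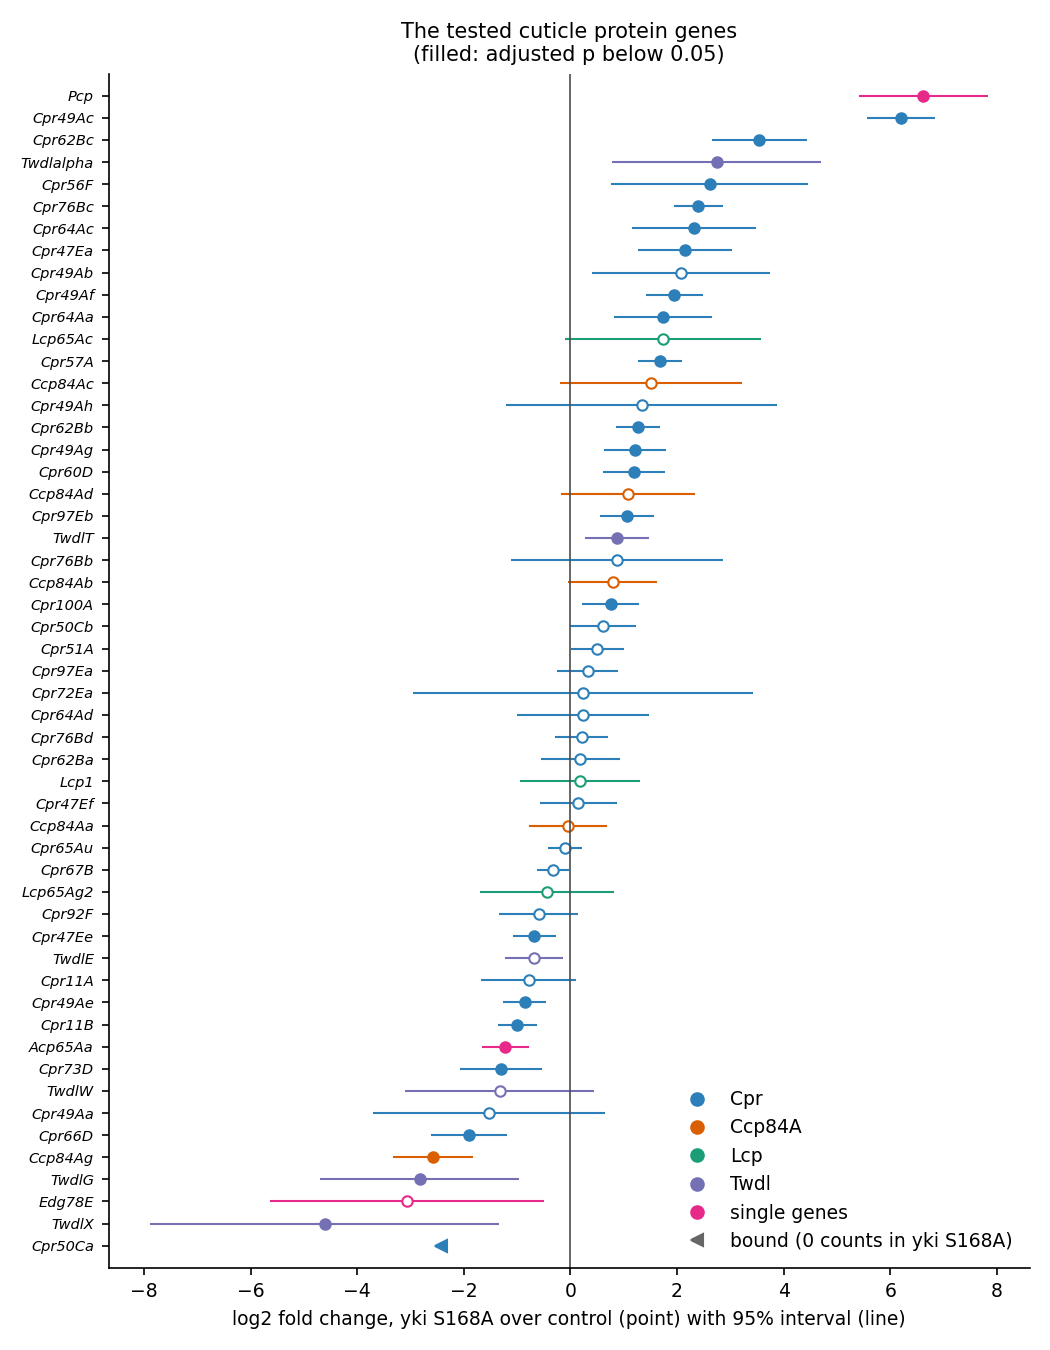
Log2 fold change, yki S168A over control, of the 53 cuticle protein genes tested, with 95% intervals and colors by family; filled points passed an adjusted p of 0.05, and the triangle is the bound for Cpr50Ca, which had 0 counts in yki S168A. Pcp has the highest and TwdlX the lowest point, the 3 Lcp genes are open points, and Ccp84Ag is the one filled Ccp84A gene.

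The 26 tested genes that were not called included 16 with a positive and 10 with a negative log2 fold change, and 5 of them had an unadjusted p below 0.05. In 16 of the 26 the groups overlapped. The 67 untested genes had a median of 3 counts in their highest library. Of these, 28 had no count anywhere, 19 had counts in 1 library alone, and the highest count was 57, for Cpr92A in yki S168A replicate 2. They summed to 85 and 176 counts in yki S168A and 175 and 85 counts in control libraries. At this depth nothing can be said of a change in these genes. Identical counts in all 4 libraries were found only in pairs with at most 3 counts in all, Cpr5C with Cpr67Fa2 and Lcp65Af with TwdlM.

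In both groups, the libraries differed more from each other at cuticle genes than at genes in general, and the sets were not matched for level. Of the 53 tested genes, 17 (32.1%) were more than 2-fold apart between the yki S168A libraries and 9 (17.0%) between the control libraries, against 10.7% and 7.37% of all genes tested. Of the 53, 39 were higher in yki S168A replicate 2 than in replicate 1, where 49.4% of all genes tested were. More cuticle genes were called higher without yki S168A replicate 1 than without yki S168A replicate 2, whereas over all genes tested fewer were. Without control replicate 1 or control replicate 2, calls in both directions fell among cuticle genes and also over all genes tested. Fewer cuticle genes were called lower than with all libraries, whichever library was left out. Calls in every alternative that tested them were kept by 10 of the 17 higher genes. These were Pcp, Cpr49Ac, Cpr62Bc, Cpr76Bc, Cpr64Ac, Cpr47Ea, Cpr49Af, Cpr57A, Cpr62Bb and Cpr49Ag. Among the 10 lower genes 5 kept theirs, namely Ccp84Ag, Cpr66D, Acp65Aa, Cpr11B and Cpr49Ae. No alternative dealt with shared loci, so kept calls do not separate Cpr57A, Cpr47Ea and Cpr11B from Obp57d, Or47a and hwt.

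Other genes that build cuticle were counted in lists, to be read against the 15.1% higher and 12.5% lower over all genes tested. The lists were chosen with earlier results of these data known, so their shares are a description. Of 30 tested genes for chitin synthesis, chitin modification and the apical matrix, 12 (40%) were higher and 3 (10%) lower (median log2 fold change 0.77), and the lens gene Cpr72Ec is 1 of the 12. The chitin-binding gene obst-A, picked after its value was seen, had 14292 and 15629 counts in yki S168A and 1327 and 1091 counts in control libraries. Of 18 tested genes for tanning and hardening, 6 (33.3%) were higher and 4 (22.2%) lower (median 0.26). In the tanning list ple, which encodes tyrosine hydroxylase and was also picked after its value was seen, had 40484 and 41773 counts in yki S168A and 2314 and 1957 counts in control libraries. Of 20 tested ecdysone-linked genes, a list that joins regulators with genes named for ecdysone, 1 (5%) was higher. It was Edg91, the ecdysone-dependent gene given above. In the same list 4 (20%) were lower, Eip75B, Hr46, Hr38 and ImpL1 (median −0.20), while ftz-f1 and EcR were not called.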

How the data were processed

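Each file deposited by the authors lists raw counts by gene symbol for 1 library, per the file headers and the values, which are whole. RNA of 30 adult heads was made into Lexogen SENSE mRNA libraries, per the labels' protocols, and dm6 is the build named in the submitters' processing notes. The sources used here name no aligner, counter, annotation or strand setting. Of 16509 lines per file, those of 17 repeated symbols were summed, leaving 16489, of which 16321 matched the Ensembl release 115 annotation of dm6 by current or older symbol.

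The test was that of edgeR 4.0.16 under R 4.3.3: filterByExpr by group (10896 genes kept), TMM scaling, estimateDisp, glmQLFit and glmQLFTest with no term other than group, Benjamini-Hochberg over all genes tested, threshold 0.05. The newer form of glmQLFit (legacy = FALSE) was set by hand, because an earlier description of these data had used it; the package default gave fewer calls and was added as an alternative after seeing the data. CPM are TMM-scaled. Standard errors were taken as |log2 fold change| divided by √F. The common coefficient of variation was 20.7%. Intervals and floors (3 counts per library) cover counting error and, for fitted intervals, the spread between these libraries, and no more. The script was tested on simulated data.

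Members and lists were chosen with earlier results of these data known. Named genes were the 4 markers (Cpr49Ac, Pcp, Cpr76Bc, Ccp84Ag), called members (up to 25 higher and every lower one), the most abundant of each family, and those with the largest p or next to the threshold; other names followed from overlap or position. Alternatives were RLE and upper-quartile scaling, no filter, a filter at a mean of 10 CPM, DESeq2 1.42.0, limma-voom (limma 3.58.1), a block for replicate number, the removal of each library in turn and an adjusted p of 0.01. Where 1 library was removed, its group kept no replicate, so calls gained or kept in that fit carry no spread of that group. Protein and promoter sequences were not used here.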

Additional observations from a re-analysis of the deposited data

How the results depend on the processing

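Of the 27 called cuticle genes, 15 kept direction and call under every one of the 12 alternative fits that tested them, and 0 changed direction. Sums of the Ccp84A genes had a log2 ratio of 0.06 (yki S168A over control) that turned to −0.0468 on raw totals and −0.10 with upper-quartile scaling, and the sum of the Twdl genes moved from −0.22 to −0.37 with upper-quartile scaling. Cuticle genes called higher numbered 12 to 24 and called lower 5 to 9 when 1 library was left out, and genes called over all tested 1634 to 3123. A filter at a mean of 10 CPM left 28 cuticle genes, fewer genes tested, and 5 called lower. At an adjusted p below 0.01, 5 cuticle genes were called lower and 1691 genes overall. Of the 26 tested cuticle genes that were not called, 10 changed sign and 8 passed when 1 library was left out. Sign changes among those named in the text were Ccp84Aa (−0.46 to 0.28), at 0.28 without control replicate 2 and 0.26 without yki S168A replicate 1, Lcp1 (−0.65 to 0.80), at −0.25 without control replicate 2 and −0.65 without yki S168A replicate 2, Cpr62Ba, at −0.087 without yki S168A replicate 1 (highest 0.42), Ccp84Ad, at −0.19 without yki S168A replicate 2 (highest 1.72), and Cpr76Bd, at −0.0039 without yki S168A replicate 2 (highest 0.39). Upper-quartile scaling moved the median log2 fold change of all genes from 0.01 to −0.15, with 1276 genes higher and 1924 lower, against 1647 and 1359. The titles number the libraries 1 and 2 in both groups, and nothing says that a number marks a shared batch; deviations of same-numbered libraries correlated at 0.02. The default quasi-likelihood method, added after seeing the data, called 15 cuticle genes higher, 9 lower and 2876 genes overall. With the replicate block, 18 cuticle genes were higher, 11 were lower and 3626 genes were called overall; among uncalled genes Ccp84Ab (adjusted p = 0.00802), Cpr49Ab (0.0148) and TwdlE (0.0437) passed. Where no cause is named, the cause was not tested. With 2 libraries per group, genes of few counts, 67 untested among them, limit what these counts can show.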
